A study of Mus musculus with 3 samples.

Results

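Red nucleus nuclei, the candidates for neurons of the rubrospinal tract, were selected on measured values of 5 genes. A nucleus was taken when Alk, a receptor tyrosine kinase gene, reached 600 CPM (the gene's UMIs over all UMIs of the nucleus, times 1e6), when Ttc6, Chst9 and Rreb1 together reached 150 CPM and at least 2 UMIs, and when Tox, a chromatin protein gene high in corticospinal neurons, stayed under 300 CPM. Barcodes with under 1000 genes or over 5% of UMIs from mitochondrial genes were left out beforehand. Of the 9027 nuclei that remained, 223 met the rule. In the study, brain neurons of uninjured C57BL/6 mice were labelled retrogradely from the lumbar spinal cord. Labelled tissue was dissected from brain slices of 500 µm, nuclei were sorted, and their RNA was sequenced in 3 droplet libraries, replicates 1, 2 and 3. The sources used here do not give the number of animals in a library. The p-values set differences between groups against their spread from library to library, estimated with information from all genes. That spread may be partly technical. All 3 libraries are of one condition. The red nucleus nuclei were therefore set against the other nuclei of the same libraries. These were 4597 other nuclei with Tox under 300 CPM ("other Tox-low", a mixture taken as mostly non-cortical) and 4207 nuclei with Tox of 300 CPM or more ("Tox-high", mostly corticospinal by their genes). A UMI of Slc17a7, a cortical transporter gene, was present in 27.5% of other Tox-low, 79.3% of Tox-high and 16.1% of red nucleus nuclei. How many other Tox-low nuclei are cortical was not tested.

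The red nucleus lies in the ventral midbrain and receives input from the cerebellum and the motor cortex. Its large, magnocellular neurons are glutamatergic, cross the midline and descend to interneurons and motor neurons of the cord that control reaching, grasping and stepping, while its small, parvocellular neurons mainly contact the inferior olive. Pou4f1 (Brn3a), a POU homeodomain factor, is needed for red nucleus neurons to form and survive in the mouse.

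Red nucleus nuclei numbered 88 of 2679 in replicate 1, 61 of 2769 in replicate 2 and 74 of 3579 in replicate 3. The shares were 3.28% (exact 95% binomial interval 2.64 to 4.03%), 2.20% (1.69 to 2.82%) and 2.07% (1.63 to 2.59%), with a mean of 2.52% ± 0.667 (SD, n = 3). The share was highest in replicate 1 and its interval did not overlap that of replicate 3. Dissection and sorting set how many nuclei of each region entered a library, and their part was not tested. Nuclei without a UMI of the marker Tll1, described below, were 14 of the 88 in replicate 1 and 3 of the 74 in replicate 3. Intervals without them were not computed. The median depth was 9450 (replicate 1), 21786 and 13047 UMIs in red nucleus nuclei, against 6712, 14035 and 10268 UMIs in other Tox-low nuclei and 12325, 26360 and 19340 UMIs in Tox-high nuclei. Summed, the red nucleus nuclei gave 905752, 1390030 and 1102849 UMIs, so 1 UMI of a gene in a library's sum was worth between 0.719 and 1.10 CPM. Intervals and floors given here cover counting error only. Between 2 and 10 cell barcodes were shared by any pair of libraries and none of them among red nucleus nuclei. Scrublet marked 1 of the 223 nuclei as a doublet. Hcrt, the orexin peptide gene of the lateral hypothalamus, is given as a gauge of UMIs that may come from other cells, though no empty droplets were measured and the source was not tested. It had 50.8, 83.5 and 34.5 CPM in red nucleus nuclei, against 131, 160.04 and 65.3 CPM in other Tox-low nuclei and 57.2, 87.0 and 27.0 CPM in Tox-high nuclei. At least 1 Hcrt UMI was present in 49.3% of red nucleus nuclei, 48.9% of other Tox-low nuclei and 55.6% of Tox-high nuclei. Thinned to 3000 UMIs per nucleus, these shares were 13.1%, 22.5% and 16.3%.

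The values of the rule genes chose the nuclei and are given as a description. Alk had 1635, 1722 and 1740.0 CPM in the red nucleus sums of replicates 1 to 3, against 232, 178 and 188 CPM in other Tox-low and 39.5, 24.2 and 22.04 CPM in Tox-high nuclei. The other genes were near one another in level, with 146 ± 6.96 CPM for Ttc6, 146 ± 13.7 CPM for Chst9 and 144 ± 14.2 CPM for Rreb1 (SD, n = 3). A nucleus could enter through any of them: Ttc6 was seen in 82.1%, Rreb1 in 82.1% and Chst9 in 53.4% of red nucleus nuclei, and all 3 in 78 nuclei, whose median depth was 17825 UMIs. Just inside the Alk limit, 5 nuclei between 600 and 700 CPM had a median of 618 CPM, and just outside it, 11 nuclei between 500 and 600 CPM that met the rest of the rule had a median of 540.0 CPM. At the limit on the summed genes, 14 nuclei between 150 and 200 CPM had a median of 178 CPM and 17 nuclei between 100 and 150 CPM a median of 134 CPM. Nuclei that met the limit on Alk but not that on the 3 genes numbered 468, and the reverse held for 108. Both sets were counted among the other Tox-low nuclei.

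**Figure D1:**
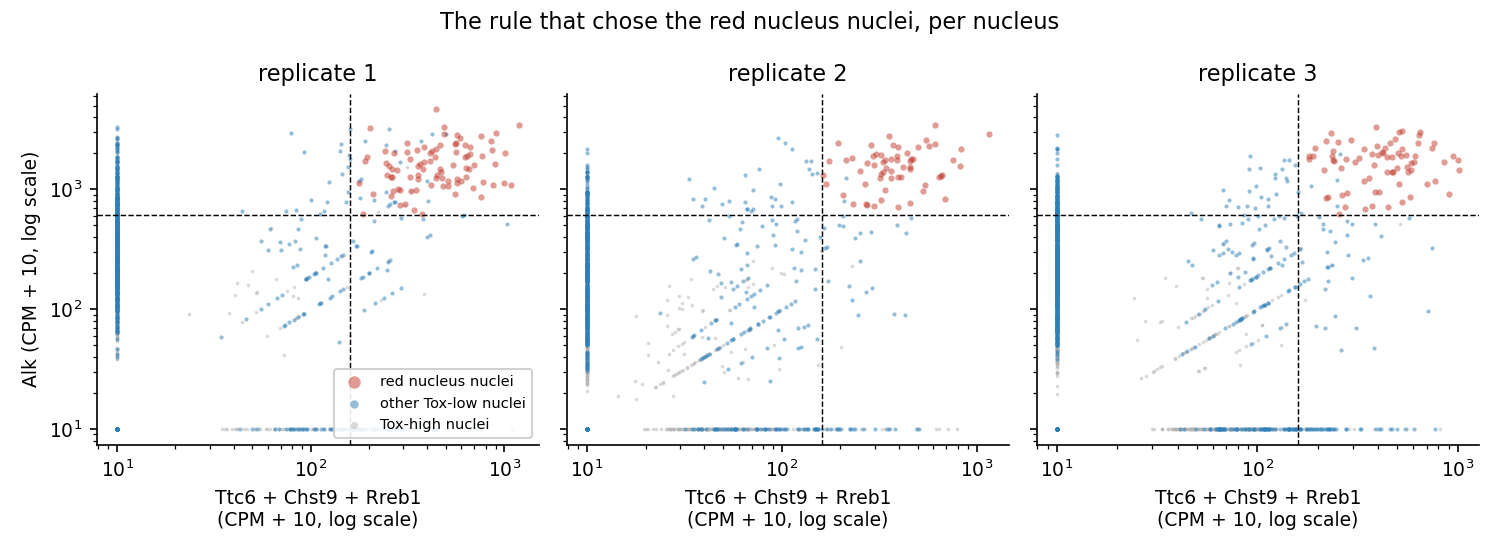
Alk against the sum of Ttc6, Chst9 and Rreb1 in every nucleus that passed the quality limits, one panel per library, both axes in CPM + 10 on a log scale; dashed lines mark the limits of the rule, and points at the lower ends are nuclei with no UMI. The red nucleus nuclei (red) fill the upper right of each panel; other points there were excluded by Tox or by the minimum of 2 UMIs.

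The given markers that the rule did not use were checked next, as a description. Tll1, a secreted metalloprotease of the BMP1 family, had 454, 422 and 557 CPM in red nucleus nuclei, against 26.7, 21.1 and 19.6 CPM in other Tox-low nuclei and 20.0, 17.5 and 12.8 CPM in Tox-high nuclei. The groups did not overlap. At least 1 Tll1 UMI was counted in 90.1% of red nucleus nuclei, against 10.2% of other Tox-low nuclei and 15.1% of Tox-high nuclei. With each nucleus thinned to 3000 UMIs (leaving out 1, 296 and 120 shallower nuclei), these shares were 67.6%, 4.65% and 3.52%. Pou4f1 had 9.94, 24.5 and 29.9 CPM in red nucleus nuclei, against 2.24, 1.23 and 1.95 CPM in other Tox-low nuclei and 1.03, 0.633 and 0.738 CPM in Tox-high nuclei. It was lowest in replicate 1 and still above all 6 other sums. A Pou4f1 UMI was counted in 23.8% of red nucleus nuclei, against 1.57% of other Tox-low and 1.55% of Tox-high nuclei; at 3000 UMIs these shares were 5.41%, 0.558% and 0.245%. As whole sets, the nuclei that met only part of the rule were intermediate: Tll1 had 101.9 CPM in the 468 nuclei that met the Alk limit alone, 61.4 CPM in the 108 that met the limit on the 3 genes alone, and 12.4 CPM in the 4021 Tox-low nuclei that met neither. Right at the limits this order did not hold. Tll1 had 17.6 CPM in the 5 nuclei just inside the Alk limit, against 105 CPM in the 11 just outside, and 219.5 CPM in the 14 just inside the limit on the summed genes, against 341 CPM in the 17 just outside.

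Of the markers outside the rule, Tll1 was thus seen in most of the nuclei and Pou4f1 in a minority; 22 of the 223 held no Tll1 UMI. Of these, 14 were in replicate 1, 5 in replicate 2 and 3 in replicate 3, and their summed depth was 253311 UMIs. They had 434 CPM of Foxp2, a forkhead factor, and 655 CPM of Unc5d, a netrin receptor, against 28.3 and 57.9 CPM in the 201 nuclei with Tll1. These are values of summed nuclei, and Tll1 did not split the nuclei cleanly by Foxp2. A Foxp2 UMI was counted in 38 of the 223, some of them with Tll1, and some of the 22 had none. Among the rule genes, the 22 had 1007 CPM of Alk, 23.7 of Chst9, 94.8 of Rreb1 and 217 of Ttc6. The 201 had 1761, 157, 146 and 139 CPM. Pou4f1 stood at 7.89 CPM in the 22 nuclei, against 23.5 CPM in the 201, while Emx2os, a gene described below, stood at 82.9 CPM, against 36.9 CPM. The same contrast is visible in the libraries' sums: Foxp2 had 153, 9.35 and 42.6 CPM and Unc5d 209.8, 65.5 and 60.8 CPM in red nucleus nuclei of replicates 1 to 3, the highest in replicate 1 for both. What kind of cell these 22 nuclei are was not tested. The counts of called genes, the most variable genes and the correlations with Tenm3 are given below also without them. Other values include them unless stated.

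Markers of most other cell types were lower in the red nucleus sums than in other Tox-low nuclei. Summed over 8 corticospinal markers (Tox, a rule gene, among them), the level was 77.3 to 135 CPM in red nucleus nuclei, against 320.1 to 449.6 CPM in other Tox-low and 2151 to 2294 CPM in Tox-high nuclei. The 5 markers of hindbrain V2a neurons came to 3.31 to 3.63 CPM, against 59.7 to 80.7 CPM in other Tox-low nuclei, and the 4 inhibitory markers to 1.44 to 2.21 CPM, against 7.56 to 18.4 CPM. Oligodendrocyte markers (6 genes) summed to 16.3 to 25.9 CPM and astrocyte markers (6 genes) to 14.4 to 29.0 CPM, both under the range of other Tox-low nuclei (33.5 to 49.3 and 38.7 to 42.3 CPM). The microglial list gave 48.6 to 85.2 CPM in red nucleus nuclei, against 53.9 to 86.2 CPM in other Tox-low nuclei, where the ranges overlapped, and 20.9 to 37.4 CPM in Tox-high nuclei, below every red nucleus sum. Paraventricular (6.62 to 26.3 CPM), lateral hypothalamic (42.6 to 89.9 CPM), noradrenergic (7.91 to 15.4 CPM), serotonergic (1.81 to 2.21 CPM) and endothelial (3.31 to 7.25 CPM) lists were also under their ranges in other Tox-low nuclei, whose lowest sums were 28.8, 98.2, 17.8, 4.87 and 11.4 CPM. The Edinger-Westphal list, of another midbrain nucleus, gave 6.62 to 33.5 CPM, against 24.5 to 66.8 CPM in other Tox-low nuclei. The part of these RNAs in the results was not tested.

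For tests, UMIs were summed per library and group, and groups were compared with edgeR's quasi-likelihood test with the library as a block; a gene was called when its Benjamini-Hochberg adjusted p was under 0.05 and its log2 fold change at least 1 in size. Fold changes are red nucleus over the other group, with their SE. Means in CPM are given with the SD over 3 libraries. Where 3 values are listed for a group, they are those of replicates 1, 2 and 3 in that order. Against all other nuclei together, 777 genes were higher (4.37% of the genes tested) and 1423 lower (8.01%). Against other Tox-low nuclei 370 were higher (1.98%) and 1028 lower (5.51%); the lower count was 678 without replicate 2 and 637 without the library block. Set against Tox-high nuclei, 1682 genes were higher (9.01%) and 1920 lower (10.3%). The contrast with Tox-high nuclei also contains whatever goes with Tox itself. In both contrasts at once, 305 genes were higher (1.63%) and 582 lower (3.12%). Without the 22 nuclei that held no Tll1 UMI, 394 genes were higher and 1013 lower than in other Tox-low nuclei, and 1681 higher and 1878 lower than in Tox-high nuclei. The counts in both contrasts were then 316 and 572, with 296 and 513 genes shared between the fits. Lower calls thus outnumber higher ones over all genes, and the counts for each gene list below stand against these shares. Of the genes lower than in other Tox-low nuclei, 349 had at most 3 UMIs in all red nucleus nuclei. The medians over all tested genes were -0.09 against other Tox-low and -0.08 against Tox-high nuclei. These contrasts share the red nucleus sums, so a gene's values in both are set side by side and not taken as separate evidence.

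The red nucleus nuclei had more RNA of several developmental transcription factors than either other group, less of Meis2 and the nuclear factor I genes, and few Hox UMIs. Of 60 listed factors of the red nucleus, midbrain and neighbouring domains, 44 were tested. In both contrasts 8 were higher and 5 lower, beside the 1.63% and 3.12% of all genes given above. Against other Tox-low nuclei alone, more were lower (17) than higher (9), beside 5.51% and 1.98% of all tested genes. Against Tox-high nuclei 16 were higher and 12 lower, beside 9.01% and 10.3%. The list's median log2 fold change was -0.54 against other Tox-low and 0.18 against Tox-high nuclei. The 8 were Pou4f1 (described above), Emx2, Lhx1, Lhx5, Foxa1, Foxa2, Esrrg and Esrrb. Emx2, Foxa1 and Foxa2 passed the filter on low counts (filterByExpr) only through the red nucleus sums, where they are high. For genes this rare only a higher call could arise, so the count of 8 depends partly on the filter. The p-values of Emx2 and Foxa2 below are given as a description.

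Emx2, a homeobox gene of the developing dorsal forebrain, had 7.73, 10.1 and 14.5 CPM in red nucleus nuclei, against 0.463, 0.567 and 0.650 CPM in other Tox-low nuclei and 0.0739, 0.0218 and 0.0254 CPM in Tox-high nuclei. The red nucleus sums were all above the others, and the log2 fold change against other Tox-low nuclei was 4.41 ± 0.43 (edgeR adjusted p = 3e-06, higher in 3 of 3 libraries). Its antisense neighbour Emx2os had 48.6, 41.0 and 32.6 CPM, against 2.47, 2.32 and 1.35 CPM in other Tox-low and 0.591, 0.393 and 0.713 CPM in Tox-high nuclei (4.49 ± 0.29 against other Tox-low nuclei, edgeR adjusted p = 4.5e-08). Emx2os lies on the minus strand at chromosome 19, 59425104 to 59458635 (GENCODE M21 on GRCm38, the mm10 build), and shares 264 bases with Emx2, whose gene runs on the plus strand from 59458372 to 59465357. The sources used here do not say how strand was treated in counting, so reads in the shared stretch cannot be assigned to one of the pair. Between single nuclei of a library, the levels of Emx2 and Emx2os had a Spearman's rho of 0.22, -0.16 and 0.01 in replicates 1 to 3, over 88, 61 and 74 nuclei that share a library and its depth. Only 7, 11 and 16 of these nuclei held an Emx2 UMI. Most ranks were therefore ties at 0, and these values cannot show whether the pair occurs in the same nuclei.

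The LIM homeobox genes Lhx1 and Lhx5, which act in early regional patterning and neuron specification, were both higher. Lhx1 had 19.7 ± 3.06 CPM in red nucleus nuclei, against 4.56 ± 1.01 CPM in other Tox-low nuclei and 0.436 ± 0.127 CPM in Tox-high nuclei (log2 fold change against other Tox-low nuclei 2.29 ± 0.25, edgeR adjusted p = 1.2e-05), and Lhx5 had 8.22 CPM in red nucleus nuclei, against 1.67 in other Tox-low and 0.345 in Tox-high nuclei. Foxa1 and Foxa2, forkhead factors of the floor plate and ventral midbrain, were rare in the red nucleus nuclei and rarer elsewhere. Foxa2 was counted as 18 UMIs among the 223 red nucleus nuclei, against 6 UMIs among 4597 other Tox-low and 4 among 4207 Tox-high nuclei, and Foxa1 as 15 UMIs, against 15 among other Tox-low and 1 among Tox-high nuclei. Per library Foxa2 had 3.31, 5.76 and 6.35 CPM in red nucleus nuclei, against 0.154, 0 and 0.200 CPM in other Tox-low nuclei (log2 fold change 5.66 ± 0.80, edgeR adjusted p = 0.00014). Foxa1 lies 17196 bases from the rule gene Ttc6 on chromosome 12 (57540628 to 57546916, minus strand; Ttc6 from 57564113 to 57737928, plus strand), so a nucleus chosen for Ttc6 RNA was chosen for a gene next to it. The oestrogen-related receptors, orphan nuclear receptors tied to energy metabolism, were abundant: Esrrg had 1059, 1122 and 1189.7 CPM in red nucleus nuclei, against 475, 476 and 474 CPM in other Tox-low nuclei and 368, 322 and 352 CPM in Tox-high nuclei. Its red nucleus sums all lay above the others, with log2 fold changes of 1.42 ± 0.07 and 1.40 ± 0.07 against other Tox-low and Tox-high nuclei (edgeR adjusted p = 9.8e-10 and 1.2e-10). Uncx, a paired-type homeobox gene that was not on the list, had 22.1, 58.3 and 34.5 CPM in red nucleus nuclei, against 4.01, 5.96 and 4.85 CPM in other Tox-low nuclei and 0.665, 0.414 and 0.534 CPM in Tox-high nuclei (log2 fold change against other Tox-low nuclei 3.12 ± 0.26, edgeR adjusted p = 6.2e-07). Its red nucleus values were uneven between libraries and did not overlap with the others.

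The promoters of these factor genes were searched for 2 motifs on both strands, in RefSeq windows of GRCm38.p6 that run from 250 bases before to 50 bases after each start: TAATTA, the core that many homeodomain proteins bind, which is its own reverse complement, and TGTTTAC, the core of forkhead sites, whose reverse complement is GTAAACA. Among the 9 factor genes higher in red nucleus nuclei (the 8 above and Uncx), 8 had a promoter entry, with 14 windows in all. TAATTA was found in 2 of the 14 windows, of Emx2 and Uncx, and in 5.29% of all 32851 windows. TGTTTAC was found in 1 of the 14, of Foxa1, and in 3.65% of all windows. The 3 windows are shown because they held a match, with the motif in capitals, and the other windows of these genes are not shown. A match is a description of these letters and not a site. Their places are chr19:59458440-59458739 (plus strand), chr5:139543648-139543947 (plus strand) and chr12:57546062-57546361 (minus strand), each sequence written 5′ to 3′ on its gene's strand.
Emx2: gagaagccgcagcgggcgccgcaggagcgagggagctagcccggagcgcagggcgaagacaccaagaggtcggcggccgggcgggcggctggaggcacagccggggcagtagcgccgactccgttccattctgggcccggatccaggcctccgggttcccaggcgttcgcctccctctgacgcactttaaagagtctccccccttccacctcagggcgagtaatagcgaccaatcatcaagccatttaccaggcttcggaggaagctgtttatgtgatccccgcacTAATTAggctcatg
Uncx: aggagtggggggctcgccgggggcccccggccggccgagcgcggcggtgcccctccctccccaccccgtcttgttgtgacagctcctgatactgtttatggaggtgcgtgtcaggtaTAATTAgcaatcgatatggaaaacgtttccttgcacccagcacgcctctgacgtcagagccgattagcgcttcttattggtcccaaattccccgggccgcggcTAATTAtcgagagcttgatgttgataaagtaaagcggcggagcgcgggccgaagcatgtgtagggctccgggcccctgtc
Foxa1: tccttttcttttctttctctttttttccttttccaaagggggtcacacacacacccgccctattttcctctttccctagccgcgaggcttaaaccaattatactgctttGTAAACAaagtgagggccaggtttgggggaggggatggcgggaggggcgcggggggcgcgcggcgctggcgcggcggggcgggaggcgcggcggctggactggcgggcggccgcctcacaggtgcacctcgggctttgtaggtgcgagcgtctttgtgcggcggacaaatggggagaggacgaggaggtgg

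In the other direction, Meis2, a TALE homeobox factor used widely along the brainstem and forebrain, had 29.8, 9.35 and 17.2 CPM in red nucleus nuclei, against 459, 432 and 475 CPM in other Tox-low nuclei and 199.6, 194 and 194 CPM in Tox-high nuclei. The red nucleus sums were the lowest in every library (log2 fold change -4.53 ± 0.17 against other Tox-low and -3.78 ± 0.18 against Tox-high nuclei, edgeR adjusted p = 1.2e-10 and 1.3e-10). The nuclear factor I genes Nfib and Nfix were also lower than in both groups; Nfib had 30.8 ± 5.59 CPM in red nucleus nuclei, against 176 ± 27.4 CPM in other Tox-low nuclei and 944 ± 43.2 CPM in Tox-high nuclei. Foxp4, a forkhead factor, was also lower than in both, and its call against other Tox-low nuclei was lost without replicate 2 (edgeR adjusted p = 0.24) and without replicate 3 (0.078). Ebf1, Meis1 and Tshz2 lay between the groups: Ebf1 had 108 CPM in red nucleus nuclei, against 284 in other Tox-low and 11.3 in Tox-high nuclei, and each of these genes was called lower than in other Tox-low and higher than in Tox-high nuclei. Hox genes, which mark neurons of the hindbrain and cord, were at the floor. All 21 listed Hox genes together gave 8 UMIs in the red nucleus nuclei, or 1.10, 2.88 and 2.72 CPM, against 38.5, 49.2 and 52.8 CPM in other Tox-low and 5.69, 5.21 and 4.79 CPM in Tox-high nuclei. None of the 15 Hox genes without a UMI can be said to be absent: over the summed red nucleus nuclei, 3 counts correspond to 0.883 CPM. Hoxb3, with 415 UMIs in other Tox-low nuclei, was at least 8.69-fold lower in red nucleus nuclei by that floor.

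**Figure D2:**
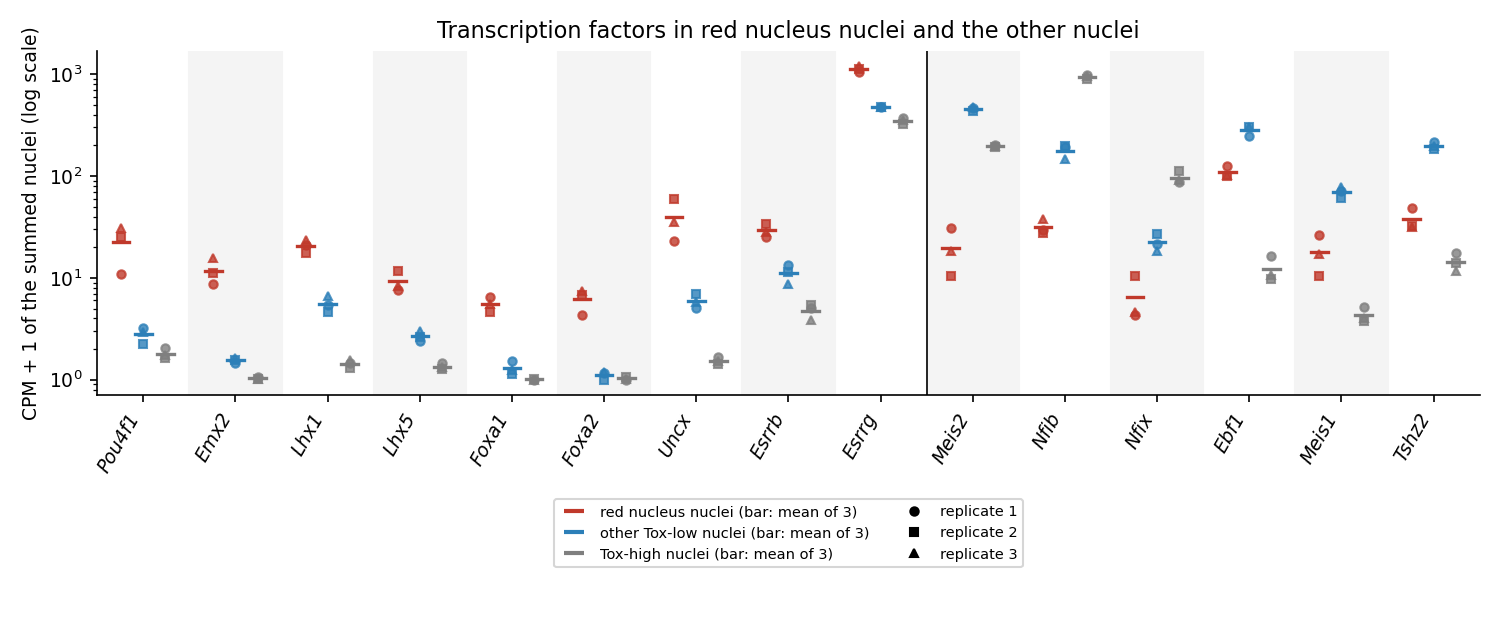
Summed expression of 15 transcription factor genes per library, in CPM + 1 on a log scale, for red nucleus nuclei (red, left), other Tox-low nuclei (blue) and Tox-high nuclei (grey); symbols are libraries and bars the mean of 3. Left of the line are genes higher in red nucleus nuclei than in both groups (Esrrg has the highest level, 1124 CPM); right of it are Meis2, Nfib and Nfix, lower than in both, and Ebf1, Meis1 and Tshz2, which lie between.

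Over all genes, those farthest above both other groups with at least 20 CPM (148 genes in all) began with Tll1, Emx2os and Pou4f1, and went on to Igf1, Ddo, Tnni3k, Uncx, Fam210b, Pde3a, Cyyr1, Lama3, Wipf1, Slc4a4, Tafa4 and Kank4. Igf1, the insulin-like growth factor, a survival and growth signal for neurons, had 66.2, 67.6 and 45.3 CPM in red nucleus nuclei, against 7.95, 4.25 and 6.70 CPM in other Tox-low nuclei and 0.369, 0.567 and 0.331 CPM in Tox-high nuclei. The groups did not overlap. The log2 fold change was 3.45 ± 0.24 against other Tox-low nuclei (edgeR adjusted p = 1.1e-07). At 3000 UMIs, an Igf1 UMI was counted in 10.8% of red nucleus nuclei (exact 95% interval 7.05 to 15.7%), against 2.02% of other Tox-low and 0.245% of Tox-high nuclei. Ddo, which encodes D-aspartate oxidase, the peroxisomal enzyme that breaks down D-aspartate, had 54.1, 45.3 and 48.1 CPM in red nucleus nuclei, against 5.86, 4.92 and 5.10 CPM in other Tox-low nuclei and 4.14, 4.03 and 3.33 CPM in Tox-high nuclei. Its replicates lay close together, and both log2 fold changes were near one another, 3.39 ± 0.18 and 3.37 ± 0.18 (edgeR adjusted p = 4.5e-09 and 5e-10). Tnni3k, a kinase gene studied mostly in the heart, varied from 28.7 CPM in replicate 1 to 59.0 CPM in replicate 2, against at most 8.72 CPM in any other sum. The laminin chain gene Lama3 had 98.9 ± 11.1 CPM in red nucleus nuclei, against 15.7 ± 0.654 CPM in other Tox-low nuclei and 1.38 ± 0.394 CPM in Tox-high nuclei, the phosphodiesterase gene Pde3a 70.8 CPM in red nucleus nuclei, against 11.5 in other Tox-low and 2.25 in Tox-high nuclei, and the sodium bicarbonate cotransporter gene Slc4a4 135 CPM in red nucleus nuclei, against 22.6 in other Tox-low and 8.15 in Tox-high nuclei. Fam210b, a mitochondrial membrane protein gene, and Wipf1, an actin regulator, completed the group with log2 fold changes of 2.98 ± 0.16 and 2.81 ± 0.25 against other Tox-low nuclei. The secreted Tafa4 and the adaptor Kank4 came last of the 15, at 2.73 ± 0.25 and 2.67 ± 0.19.

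Farthest below both other groups (of 154 genes with at least 20 CPM in the other groups) were Olfr1369-ps1, Meis2, Grik3, Kcnip3, Ankrd33b, Ephb1, Ldb2, Chrm3, Lmo3 and Grm8. Ldb2 and Lmo3, which encode a cofactor of LIM homeodomain proteins and a LIM-only protein, had 24.1 ± 2.20 and 7.26 ± 1.77 CPM in red nucleus nuclei, against 211 ± 16.4 and 61.4 ± 4.96 CPM in other Tox-low nuclei. Ldb2 was thus low where Lhx1 and Lhx5 were high. Ephb1, an ephrin receptor of axon guidance, had 46.4, 23.0 and 22.7 CPM in red nucleus nuclei, against 267, 258 and 258 CPM in other Tox-low nuclei and 336, 322 and 297 CPM in Tox-high nuclei, with log2 fold changes of -2.98 ± 0.15 and -3.73 ± 0.14 (edgeR adjusted p = 2.7e-09 and 1.4e-11). Olfr1369-ps1 is named as an olfactory receptor pseudogene but is listed as protein-coding in GENCODE M21. It had 5 UMIs in red nucleus nuclei and ranged from 21.2 to 73.9 CPM among the 3 other Tox-low sums.

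**Figure D3:**
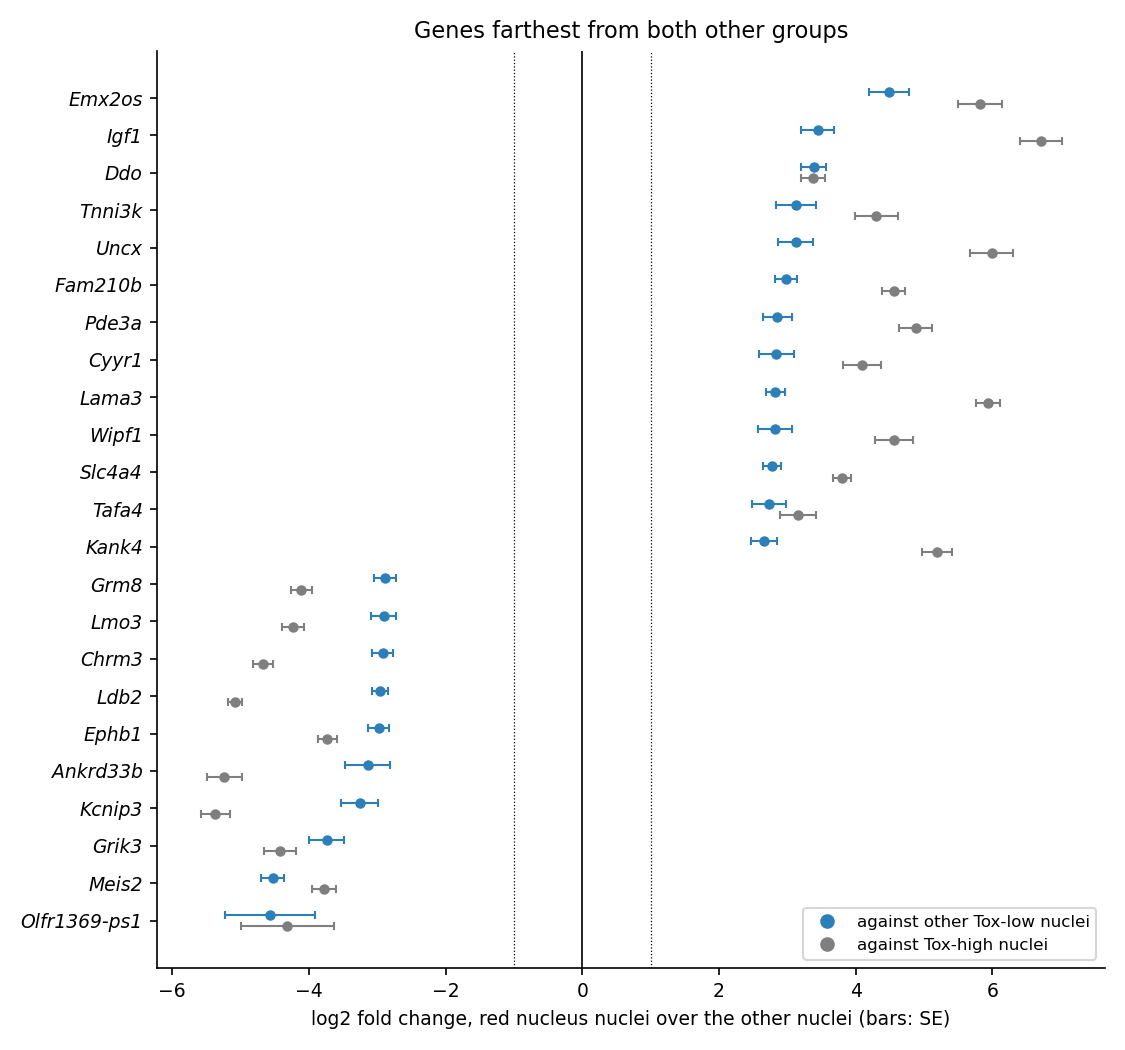
Log2 fold change of red nucleus nuclei over other Tox-low nuclei (blue) and over Tox-high nuclei (grey), with its SE, for 13 of the 15 genes farthest above both groups and the 10 farthest below; Tll1 and Pou4f1, given as markers, are left out. Dotted lines mark a log2 fold change of 1 in either direction, and all points lie beyond them, from 2.67 (Kank4) to 6.71 (Igf1) above and from -2.89 (Grm8) to -5.37 (Kcnip3) below.

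The transmitter genes gave a glutamatergic profile. Slc17a6, the vesicular glutamate transporter VGLUT2 of subcortical neurons, had 124, 106 and 141 CPM in red nucleus nuclei, against 84.6, 83.0 and 101 CPM in other Tox-low nuclei and 8.28, 7.09 and 7.08 CPM in Tox-high nuclei. It was called higher only against Tox-high nuclei (3.76 ± 0.12, edgeR adjusted p = 1.3e-12); against other Tox-low nuclei the log2 fold change of 0.63 ± 0.10 was under the limit of 1 (edgeR adjusted p = 0.00041). Slc17a7, the cortical transporter VGLUT1, had 6.62, 24.5 and 8.16 CPM in red nucleus nuclei, against 29.7, 61.4 and 34.1 CPM in other Tox-low and 74.2, 129 and 103 CPM in Tox-high nuclei, where replicate 2 was the highest in each group. It was the 1 gene of 17 tested transmitter genes called lower in both contrasts, and against other Tox-low nuclei that call was lost without the library block (edgeR adjusted p = 0.073); none was higher in both. The lower count was 2 without replicate 1 and 2 without replicate 3, and the list's median was -1.84 against other Tox-low and -0.54 against Tox-high nuclei. Inhibitory genes were near 0: Gad2 gave 1 UMI, Gad1 2 UMIs, Slc32a1 1 UMI and Slc6a5 2 UMIs over all red nucleus nuclei. At 3000 UMIs, Gad2 was seen in 0 of 222 red nucleus nuclei (exact 95% upper limit 1.65%), against 1.84% of other Tox-low nuclei.

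Of 39 tested potassium channel genes, beside 1.63% higher and 3.12% lower in both contrasts over all tested genes, 3 were higher in both contrasts (Kcnc1, Kcnc2 and Kcnk2) and 5 lower in both (among them Kcnip3, Kcnt2, Kcnh7 and Kcnq5); the list's median was -0.02 against other Tox-low and -0.44 against Tox-high nuclei. Kcnc1 and Kcnc2 encode Kv3 channels, which open at high voltage and shorten action potentials in fast-firing neurons. Kcnc2 had 1124, 897 and 1053 CPM in red nucleus nuclei, against 477, 407 and 475 CPM in other Tox-low nuclei and 23.6, 21.7 and 21.2 CPM in Tox-high nuclei. All 3 red nucleus sums exceeded the other Tox-low ones (1.35 ± 0.07, edgeR adjusted p = 3.3e-09) and the Tox-high ones (5.23 ± 0.08, 4e-15). Kcnc1 had 141 CPM in red nucleus nuclei, against 70.3 in other Tox-low and 22.1 in Tox-high nuclei, and Kcnk2, the leak channel TREK-1, 103 CPM in red nucleus nuclei, against 46.8 in other Tox-low and 2.65 in Tox-high nuclei. Kcnip3, a calcium sensor that binds Kv4 channels, had 2.21, 5.04 and 4.53 CPM in red nucleus nuclei, against 41.1, 54.0 and 36.6 CPM in other Tox-low nuclei and 139, 144 and 128 CPM in Tox-high nuclei. That is -3.26 ± 0.27 on the log2 scale against other Tox-low nuclei (edgeR adjusted p = 6e-07). The sodium-activated channel gene Kcnt2 followed with 19.5 CPM in red nucleus nuclei, against 147 in other Tox-low and 363 in Tox-high nuclei. Kcnh8 was lower than in other Tox-low nuclei alone, with 4 UMIs.

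Among sodium channel genes 1 of 13 was higher in both contrasts and none lower, with a list median of 0.22 against other Tox-low and -0.05 against Tox-high nuclei. It was Scn9a (Nav1.7), with 419 ± 108 CPM in red nucleus nuclei, against 219 ± 41.0 CPM in other Tox-low nuclei and 22.6 ± 3.18 CPM in Tox-high nuclei and a log2 fold change of 1.10 ± 0.07 against other Tox-low nuclei (edgeR adjusted p = 2.9e-08). Among 21 calcium and HCN channel genes, Cacna2d1, the calcium channel subunit that binds gabapentin and thrombospondin, was higher in both and Cacna1h, a T-type channel, lower in both (2 genes were lower without replicate 1 and 2 without replicate 3). The list's median was -0.07 against other Tox-low and -0.56 against Tox-high nuclei. Cacna2d1 had 2062, 2132 and 2113 CPM in red nucleus nuclei, against 818, 718 and 792 CPM in other Tox-low nuclei and 682, 620.3 and 655 CPM in Tox-high nuclei. The 3 libraries agreed closely, with log2 fold changes of 1.62 ± 0.06 and 1.40 ± 0.06 (edgeR adjusted p = 1.7e-10 and 8.4e-11).

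Receptor genes are given by class, beside 1.63% higher and 3.12% lower in both contrasts over all tested genes. Of 25 glutamate receptor genes, 4 were lower in both contrasts (Grik3, Grm8, Gria1 and Grm3) and none higher (1 without replicate 1 and 1 without replicate 3); the list's median was -0.29 against other Tox-low and -0.65 against Tox-high nuclei. Grik3, a kainate receptor subunit, had 2.21, 4.32 and 6.35 CPM in red nucleus nuclei, against 80.1, 59.7 and 62.5 CPM in other Tox-low nuclei and 81.6, 79.2 and 72.4 CPM in Tox-high nuclei; the groups did not overlap (-3.74 ± 0.26 against other Tox-low nuclei, edgeR adjusted p = 7.8e-08). Another kainate subunit, Grik1, lay between the groups, with 60.6 CPM in red nucleus nuclei, against 395 in other Tox-low and 19.9 in Tox-high nuclei, and was called lower against the first and higher against the second. Of 21 GABA and glycine receptor genes, Glra3, a glycine receptor subunit, was higher in both and Gabra2, Gabra4, Gabrg3 and Gabrd were lower in both; the list's median was -0.39 against other Tox-low and -0.48 against Tox-high nuclei. Glra3 had 73.3 ± 7.95 CPM in red nucleus nuclei, against 30.7 ± 3.19 CPM in other Tox-low nuclei and 2.01 ± 0.0640 CPM in Tox-high nuclei (1.43 ± 0.12 against other Tox-low nuclei, edgeR adjusted p = 4.3e-07). Gabra4 and Gabrd, subunits of receptors outside synapses, had 5.09 ± 0.673 and 0.368 ± 0.637 CPM in red nucleus nuclei, against 26.0 ± 0.735 and 5.09 ± 1.42 CPM in other Tox-low nuclei; the call of Gabrd there rested on 1 UMI in red nucleus nuclei and was lost without replicate 2 (edgeR adjusted p = 0.087).

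Of 32 tested neuromodulator receptor genes, 2 were higher in both contrasts (Htr1d and Crhr1) and 5 lower in both (Calcr, Chrm3, Adra1a, Htr1f and Chrm1); the higher count was 1 without replicate 2 and 1 without replicate 3. The list's median was -0.35 against other Tox-low and -0.08 against Tox-high nuclei. Htr1d, an inhibitory serotonin receptor, had 55.2, 55.4 and 54.4 CPM in red nucleus nuclei, against 13.0, 17.0 and 12.2 CPM in other Tox-low nuclei and 0.591, 0.829 and 0.560 CPM in Tox-high nuclei. Its red nucleus values were nearly equal in the 3 libraries (2.13 ± 0.16 against other Tox-low nuclei, edgeR adjusted p = 1.7e-07). Chrm3, a muscarinic acetylcholine receptor, had 45.7 ± 18.1 CPM in red nucleus nuclei, against 394 ± 41.1 CPM in other Tox-low nuclei and 962 ± 74.2 CPM in Tox-high nuclei (-2.92 ± 0.15, edgeR adjusted p = 3.8e-09), and Adra1a, an alpha-1 adrenergic receptor, 8.30 CPM in red nucleus nuclei, against 47.0 in other Tox-low and 88.5 in Tox-high nuclei. Calcr, the calcitonin receptor, had no UMI in the red nucleus nuclei and 712 in other Tox-low nuclei, which makes it at least 14.9-fold lower against the floor of 3 counts over the summed nuclei.

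**Figure D4:**
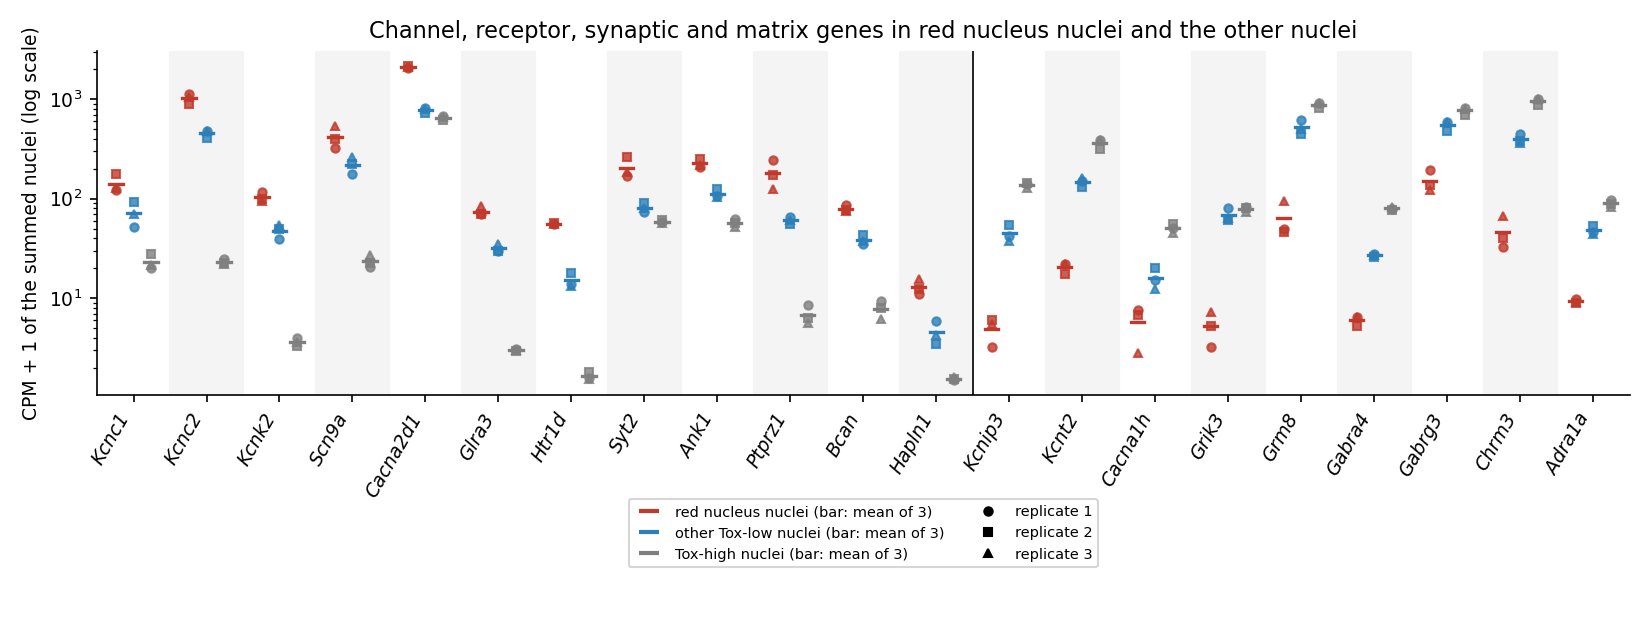
Summed expression per library, in CPM + 1 on a log scale, of 21 channel, receptor, synaptic and matrix genes in red nucleus nuclei (red, left), other Tox-low nuclei (blue) and Tox-high nuclei (grey); symbols are libraries and bars the mean of 3. The 12 genes left of the line were called higher than in both groups and the 9 right of it lower than in both, for example Kcnc2 with a mean of 1025 CPM and Kcnt2 with 19.5 CPM in red nucleus nuclei.

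Among genes of large, fast-conducting projection neurons, of which 22 were tested, 4 were higher in both contrasts (Syt2, Ank1, Pvalb and Spp1), none was lower in both, and the median was 0.27 against other Tox-low and 0.28 against Tox-high nuclei. Syt2, the calcium sensor of fast transmitter release, had 168, 259 and 183 CPM in red nucleus nuclei, against 72.8, 88.9 and 79.1 CPM in other Tox-low nuclei and 57.5, 60.1 and 55.7 CPM in Tox-high nuclei. All 3 red nucleus sums exceeded the 6 others (1.52 ± 0.09 against other Tox-low nuclei, edgeR adjusted p = 2.5e-08). Spp1, osteopontin, had only 19 UMIs in red nucleus nuclei, and its call against other Tox-low nuclei was lost without replicate 1 (edgeR adjusted p = 0.16) and without replicate 3 (0.15). The neurofilament genes Nefl, Nefm and Nefh had log2 fold changes of 0.96 ± 0.15, 0.64 ± 0.12 and 0.83 ± 0.18 against other Tox-low nuclei, under the limit of 1. Of 20 tested genes of the perineuronal net, the matrix that wraps fast-firing neurons, 3 were higher in both contrasts and 1, Chsy3, lower in both (0 without replicate 3 and 0 without the nuclei that held no Tll1 UMI), with a median of 0.07 against other Tox-low and 0.06 against Tox-high nuclei. The 3 were Bcan (brevican), Hapln1, a link protein, and Ptprz1, whose secreted form is phosphacan. Ptprz1 had 242, 170.5 and 124 CPM in red nucleus nuclei, against 65.0, 54.4 and 59.7 CPM in other Tox-low nuclei and 7.46, 5.30 and 4.66 CPM in Tox-high nuclei. Replicate 1 was the highest, and no red nucleus sum reached down to the other groups (1.72 ± 0.13 against other Tox-low nuclei, edgeR adjusted p = 1.6e-07). Hapln1 had 11.98 CPM in red nucleus nuclei, against 3.54 in other Tox-low and 0.558 in Tox-high nuclei.

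Among 24 tested neuropeptide and secreted synaptic genes, Calcb and Cbln1 were higher in both contrasts and 2 genes lower in both (1 without replicate 1 and 0 without replicate 2); the median was -1.26 against other Tox-low and -0.19 against Tox-high nuclei. Calcb, which encodes beta-CGRP, had 2.21, 11.5 and 16.3 CPM in red nucleus nuclei, against 0.772, 0.189 and 0.550 CPM in other Tox-low nuclei and 0.0739, 0.153 and 0.204 CPM in Tox-high nuclei. It was lowest in replicate 1, as Pou4f1 was, and still above the 6 other sums (4.61 ± 0.59 against other Tox-low nuclei, edgeR adjusted p = 5.3e-05). Without its red nucleus sums Calcb would not have passed the filter on low counts, so this p is given as a description. A Calcb UMI was present in 8.07% of red nucleus nuclei, against 0.5% of other Tox-low nuclei; at 3000 UMIs these shares were 2.70% and 0.233%. Of 44 tested growth factor and receptor genes, 4 were higher in both (Igf1, Erbb4, Kitl and Ret) and 3 lower in both, with a median of -0.16 against other Tox-low and -0.40 against Tox-high nuclei. Erbb4, the neuregulin receptor, had 1061, 697 and 778 CPM in red nucleus nuclei, against 302, 323 and 315 CPM in other Tox-low nuclei and 23.2, 17.0 and 10.3 CPM in Tox-high nuclei (1.57 ± 0.15 against other Tox-low nuclei, edgeR adjusted p = 2.5e-06). Kitl, the ligand of the receptor Kit, had 38.4 ± 16.3 CPM in red nucleus nuclei, against 12.2 ± 1.14 CPM in other Tox-low nuclei, while Kit itself gave 2 UMIs. Gfra2, the neurturin receptor, and Bdnf were among the lower ones, Bdnf with 10.2 CPM in red nucleus nuclei, against 38.2 in other Tox-low and 26.0 in Tox-high nuclei. The neurotrophin receptor genes Ntrk2 and Ntrk3 had log2 fold changes of 0.15 ± 0.07 and 0.27 ± 0.06 against other Tox-low nuclei.

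Of 46 axon guidance genes, 1 was higher in both contrasts and 7 lower in both, beside 1.63% and 3.12% of all tested genes, with a median of -0.27 against other Tox-low and -0.40 against Tox-high nuclei. Robo2, a Slit receptor, was the higher one, with 2444, 1846 and 2135 CPM in red nucleus nuclei, against 1059, 791 and 1010.3 CPM in other Tox-low nuclei and 842, 720.1 and 790.2 CPM in Tox-high nuclei. The 3 red nucleus sums stood above all others (1.34 ± 0.07 against other Tox-low nuclei, edgeR adjusted p = 4e-09). Sema3a, a secreted repellent, had 1.69 ± 0.537 CPM in red nucleus nuclei, against 42.4 ± 5.91 CPM in other Tox-low nuclei and 6.33 ± 1.49 CPM in Tox-high nuclei (-4.38 ± 0.33 against other Tox-low nuclei, edgeR adjusted p = 1.8e-07), and the ephrin receptor gene Epha3 6.73 CPM in red nucleus nuclei, against 57.7 in other Tox-low and 25.3 in Tox-high nuclei. Dcc, the netrin receptor, had 1638 CPM in red nucleus nuclei, against 1997 in other Tox-low and 87.3 in Tox-high nuclei and was not called against other Tox-low nuclei. Of 16 classical cadherin genes, Cdh18 was higher in both, with 2703 CPM in red nucleus nuclei, against 1460.3 in other Tox-low and 240.0 in Tox-high nuclei, and 3 were lower in both; the median was 0.24 against other Tox-low and -0.52 against Tox-high nuclei. Cdh6 was one of these, with 13.6 CPM in red nucleus nuclei, against 101 in other Tox-low and 240.1 in Tox-high nuclei. Receptors of growth inhibitors numbered 11 tested, of which 2 were lower in both (1 without replicate 2) and none higher, with a median of -0.03 against other Tox-low and -1.01 against Tox-high nuclei. The Nogo receptor gene Rtn4r had 11.6 CPM in red nucleus nuclei, against 13.1 in other Tox-low and 27.9 in Tox-high nuclei, and was called lower only against Tox-high nuclei. Of 30 tested growth and regeneration genes, with a median of 0.00 against other Tox-low and -0.21 against Tox-high nuclei, 1 was higher in both and 1, Stmn4, lower in both, counts near the 1.63% and 3.12% of all tested genes. The lower count was 0 without replicate 1 and 0 without the nuclei that held no Tll1 UMI. The higher gene was Sox11, with 52.7 CPM in red nucleus nuclei, against 29.9 in other Tox-low and 4.06 in Tox-high nuclei; its call was lost without replicate 2 (log2 fold change 0.93 against other Tox-low nuclei). Gap43 had 138 CPM in red nucleus nuclei, against 173 in other Tox-low and 153 in Tox-high nuclei, and was called in neither.

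The red nucleus nuclei also differed among themselves. The variance of a gene's counts over the red nucleus nuclei was divided by that expected from depth alone. This was done per library for genes with at least 0.5 UMI per nucleus in every library. Each gene was given the lowest of its 3 library values, and the median of these lowest values over 3194 genes was 1.04. By the lowest of the 3 libraries, the 8 most variable genes were Malat1, Kcnip4, Lsamp, Cntn5, Zfp804b, Kcnd2, Tenm2 and Tenm3, at 193 times (Malat1) to 10.8 times (Tenm3) the expected variance. This ratio tends to rise with a gene's count, so it favours abundant genes and does not rank relative spread. Malat1, with 1593 to 3629 UMIs per nucleus, had quartiles of 112280 and 188500 CPM. Tenm3, with 7.03 to 13.0 UMIs per nucleus, had quartiles of 67.6 and 846 CPM. Of these 8, 5 stayed among the first 8 without replicate 1. Malat1 is the nuclear RNA that dominates such libraries. Kcnip4, a Kv4 channel partner, was at 0 in 1 nucleus and had a median of 1644 CPM and a maximum of 17134 CPM. The top of its range was held by nuclei without a Tll1 UMI, which made up 7 of the 8 nuclei over 8000 CPM. The median of Kcnip4 was 4405 CPM in the 22 nuclei without a Tll1 UMI, against 1545 CPM in the 201 with one, where its maximum was 8099 CPM. With the 22 left out, 7 of the 8 genes stayed among the first 8, Kcnip4 among them, and Tenm3 fell to rank 9. Tenm3 ranked 18 without replicate 1, 8 without replicate 2 and 10 without replicate 3. Tenm3, a teneurin that guides axons and synaptic partner choice, was at 0 in 45 nuclei and had a median of 347 CPM and a maximum of 3909 CPM. Its median was 512 CPM in replicate 1, 384 CPM in replicate 2 and 147.5 CPM in replicate 3, and its level went with depth at a Spearman's rho of -0.04, 0.09 and 0.21.

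The genes whose level followed that of Tenm3 lay beside it. Over 3193 other genes, the 6 with the highest rank correlation to Tenm3 within each library were C130073E24Rik, Gm2516, Gm45323, 4930555F03Rik, Gm45321 and Gm45341. All are annotated non-coding genes on chromosome 8 next to Tenm3. Spearman's rho was 0.77, 0.87 and 0.78 for C130073E24Rik in replicates 1 to 3 and 0.66, 0.62 and 0.71 for Gm45341, over 88, 61 and 74 nuclei that share a library and its depth; these values describe the nuclei and were not tested. Tenm3 covers chromosome 8, 48227682 to 48843951, on the minus strand, and C130073E24Rik, the farthest of the 6, 50743291 to 50916997, also on the minus strand, so the set spans 2.69 Mb (GENCODE M21, GRCm38). A gap of 526934 bases separates Tenm3 from the nearest of the 6, 4930555F03Rik, which lies on the plus strand. Of the 12 genes of the files inside this interval, these 6 and Tenm3 were the 7 with enough UMIs to be ranked; the other 5 had at most 61 UMIs in the red nucleus nuclei. Gm2516 lies inside the span of Gm45341 on the opposite strand, so those 2 may share reads.

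Summed, the 6 neighbours followed Tenm3 with a rho of 0.82, 0.87 and 0.86 in replicates 1 to 3. Both were at 0 in 12, 4 and 20 red nucleus nuclei, and the summed neighbours reached 8519, 7647 and 6374 CPM at the top. In other Tox-low nuclei the correlation with Tenm3 was lower for each of the 6, for example 0.49, 0.61 and 0.56 for C130073E24Rik. The next gene was Pcdh15, a protocadherin on chromosome 10, with 0.61, 0.54 and 0.50 in red nucleus nuclei, against 0.23, 0.26 and 0.23 in other Tox-low nuclei. At the other end stood Kcnip4, with -0.43, -0.41 and -0.38 in red nucleus nuclei, against 0.07, 0.03 and 0.09 in other Tox-low nuclei, and the latrophilin Adgrl2, with -0.40, -0.49 and -0.36. Without the 22 nuclei that held no Tll1 UMI, Kcnip4 had -0.28, -0.48 and -0.38, so the value of replicate 1 rested in part on them, and the summed neighbours had 0.78, 0.87 and 0.85; the same 6 neighbours still ranked first. Lsamp, a cell adhesion gene, had -0.33, -0.56 and -0.28 in red nucleus nuclei, against 0.21, 0.22 and 0.16 in other Tox-low nuclei. The difference between the 2 groups of nuclei was not tested. As group levels, C130073E24Rik had 572, 439 and 357 CPM in red nucleus nuclei, against 209, 203 and 214 CPM in other Tox-low nuclei and 10.3, 8.05 and 8.53 CPM in Tox-high nuclei, with the red nucleus sums above all others (1.28 ± 0.10 against other Tox-low nuclei, edgeR adjusted p = 4.7e-07). Tenm3 had 608 CPM in red nucleus nuclei, against 385 in other Tox-low and 201 in Tox-high nuclei; its log2 fold change of 0.81 ± 0.10 against other Tox-low nuclei was under the limit of 1. Alk and Tll1 were only weakly related to Tenm3 among red nucleus nuclei, with a rho of 0.28, -0.08 and 0.22 for Alk and 0.31, 0.13 and 0.15 for Tll1. The neighbours, Pcdh15 and the pairs named here were chosen after their values were seen.

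**Figure D5:**
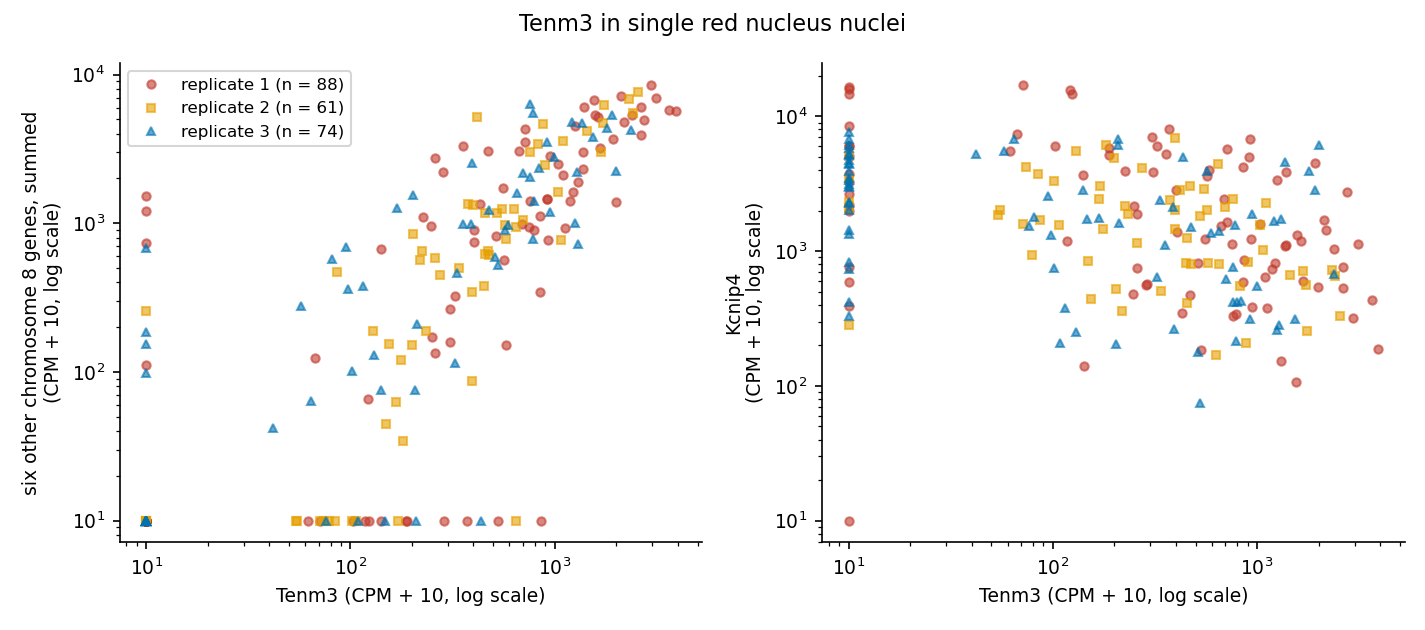
Each point is one red nucleus nucleus, coloured by library: Tenm3 on the x axis against the sum of its 6 neighbours on chromosome 8 (left) and against Kcnip4 (right), all in CPM + 10 on log scales, with nuclei without a UMI at the lower ends. The neighbours rise with Tenm3 in all 3 libraries (rho 0.82, 0.87 and 0.86), while Kcnip4 tends to be lower where Tenm3 is higher (-0.43, -0.41 and -0.38; -0.28, -0.48 and -0.38 without the 22 nuclei that held no Tll1 UMI).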

How the data were processed

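The deposited counts are whole UMIs per gene and barcode, written by Cell Ranger with mm10 per the submitters' processing notes, which name version 7.0.1, while the file headers name 6.1.1. How introns and strand were counted was not stated in any source read here. The red nucleus nuclei and all gene lists were chosen with earlier results of these data known. UMIs were summed per library for red nucleus nuclei, other Tox-low nuclei and Tox-high nuclei. Genes passing filterByExpr were fitted with edgeR 4.0.16 (TMM, glmQLFit and glmQLFTest) with the library as a block, because all groups of a library share that library. The SE is the log2 fold change over the square root of F. Rule genes were left out of all counts. The procedure was tested on simulated data. Doublets were marked per library with Scrublet (scanpy 1.11.5) and kept, except in an alternative. Named genes were the 15 highest and 10 lowest called the same way in both contrasts with at least 20 CPM, up to 4 called genes of each list, all called listed factors and the 8 most variable genes; other genes called in both contrasts, and Uncx and Emx2os as factors or neighbours, were named after their values were seen; some called genes are not reported here. Locations are from GENCODE M21. Alternatives were DESeq2 1.42.0, other scaling, filters, limits and left-out libraries.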

Additional observations from a re-analysis of the deposited data

How the results depend on the processing

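Of 2196 results for 100 named genes under 13 alternatives, 2108 kept their direction and their side of the threshold, 88 kept the direction and missed the threshold, and none turned direction. The count of genes lower than in other Tox-low nuclei, 1028, was 637 without the replicate block and ranged from 678 to 861 when a library was left out; the library pairs the groups because they were prepared together in it. The share of red nucleus nuclei, 2.52%, was 1.849% when Ttc6, Chst9 and Rreb1 together had to reach 300 CPM. Of the 8 most variable genes, 5 to 8 remained among the first 8 when a library was left out, and 7 without the nuclei that held no Tll1 UMI. The count higher in both contrasts ran from 227 (without replicate 2) to 347 (DESeq2 Wald test), against 305, and the count lower in both from 394 (without replicate 2) to 842 (no filter on low counts), against 582. Leaving out near-miss nuclei, or red nucleus nuclei without a Tll1 UMI, was added after seeing the data. With 905752 to 1390030 UMIs per library in red nucleus nuclei, genes of a few UMIs could not be compared reliably, and Foxa1, Foxa2, Spp1 and Gabrd rest on 1 to 19 UMIs.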
